A study of Mus musculus with 6 samples.

Results

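The nucleolar factors that build ribosomes were measured by RNA sequencing in mouse CD8 T cells after a day of stimulation through the T cell receptor. The set holds 46 genes chosen by name as snoRNP proteins, RNA polymerase I genes and pre-rRNA processing factors, and all 46 had a row among the 49492 rows of the count table. The rule uses gene names and no measured value, but the set was proposed with earlier results of these data known. Ribosomes are assembled in the nucleolus, where RNA polymerase I transcribes a long precursor that is cut and modified into mature rRNA. Small nucleolar RNPs guide chemical modification of that precursor: box C/D particles carry out methylation, and box H/ACA particles turn uridine into pseudouridine. Assembly factors then fold and trim the small and large subunits before export. Stimulated T cells enlarge before they divide, and their nucleoli grow with them. MYC, which activation induces, is a known activator of many of these genes.

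The cells were splenic CD8 T cells, isolated in the naive state, of OT-I mice with the strain label C57/BL6, aged 6 to 8 weeks. Both groups carry the OT-I transgenic receptor, which recognises an ovalbumin peptide. The 3 libraries labelled WT (replicates 1 to 3) are WT-OT-I cells, and the 3 labelled KO (replicates 4 to 6) are NIK-CD4Cre-OT-I cells. They are written WT1 to WT3 and KO4 to KO6. NIK, encoded by Map3k14, is the kinase upstream of noncanonical NF-kB signalling. Cre under Cd4 control acts from T cell development in the thymus onward. Both groups were stimulated in the same way for 24 hours with plate-bound anti-CD3 (1 µg/ml) and soluble anti-CD28 (1 µg/ml). The sources used here do not say whether the WT mice carried Cre or a conditional allele. The labels also leave unsaid whether different libraries are different mice. Xist and Y-linked counts show libraries of both sexes in each group, so each group holds cells of more than a single mouse. Libraries of the same sex and group may still share a mouse. The p-values therefore measure spread among these 6 libraries, which may be technical in part.

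Gene counts summed to between 41311346 and 47851445 per library. Counts of Map3k14 were 2406, 2992 and 3025 in WT1 to WT3, and 2425, 2837 and 2271 in KO4 to KO6. Its level therefore overlapped between the groups, which are named here as labelled. Since deletion may leave part of a transcript in place, gene-level counts are an incomplete check of genotype. The 8 T cell markers, Cd8a and Cd8b1 included, summed to between 2496 and 2676 CPM, which is counts per 1000000 after scaling, in the 6 libraries. Markers of other cells were low: 8 B cell markers summed to 28.1 to 92.1 CPM under the WT label and 33.9 to 48.0 under the KO label, and 9 macrophage and monocyte markers to 6.45 to 11.5 and 9.46 to 20.5 CPM. The 5 NK cell markers and 6 neutrophil markers were each under 1 CPM in every library, and among the latter Elane had no count. Their sums did not overlap between the groups: NK cell markers summed to 0.423 to 1.23 CPM in WT and 0.188 to 0.337 in KO, and neutrophil markers to 0.267 to 0.591 and 0.659 to 0.963. These sums rest on few counts, and only 1 gene of each list had enough to be tested. Of all tested genes, 6.07% had every KO library below every WT library and 6.68% had every one above. Sums of the other marker lists overlapped. The 4 CD4 T cell markers summed to 13.4 to 27.3 and 11.2 to 16.9 CPM, and the 7 dendritic cell markers to 12.2 to 18.5 and 13.3 to 20.7, with Cd209a at 0. The part of these cells in the results below was not tested. The 50 most abundant genes took 11.5% to 12.2% of counts under the WT label and 11.3% to 11.4% under the KO label, without overlap (exact permutation test, two-sided p = 0.1, the smallest that 3 against 3 allows), and the part of this in the results was not tested. In such bulk samples fewer cells of a type and less RNA per cell cannot be told apart.

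The members were abundant genes. Their counts ran from 2836 to 172836 per library. Together they took 1.80%, 1.73% and 1.74% of all counts in WT1 to WT3, and 1.80%, 1.62% and 1.68% in KO4 to KO6. KO4 thus stood with the WT libraries, and KO5 and KO6 lay below all 3 of them. Levels of different genes were compared as CPM per kb of coding sequence, although reads from untranslated ends are counted too. The order below the highest 2 genes depends on that choice of length. On that scale Npm1, a histone and ribosome chaperone of the granular nucleolus, was highest with a mean of 2877, and Ncl, the RNA-binding protein nucleolin, followed with 1626. Npm1 has processed pseudogenes that resemble it, so the assignment of its reads is uncertain. The next was Nop10, a very small H/ACA protein, at 584.5, but at 101 per kb of its whole transcript it lay below Nop56 (262) and others. Utp20, a large scaffold of small subunit assembly, was lowest per coding kb with 40.2, while per transcript kb Wdr12 was lowest (11.5 against 38.2 for Utp20). Transcript length was that of the longest principal transcript, which for Wdr12 has 10012 bases beside 1269 coding bases. In the coding order the neighbours of Utp20, Noc3l (40.6) and Ddx10 (43.0), had ranges over the libraries that overlapped its range. Within each library Ddx10 was above Utp20, while Noc3l was above it in some libraries and below it in others. The 3 highest genes did not overlap each other.

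**Figure D1:**
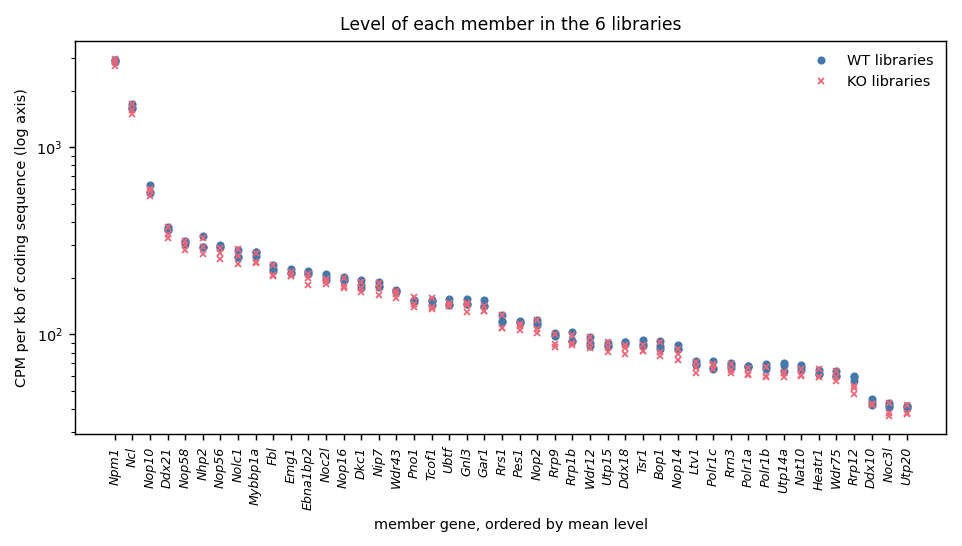
Level of each of the 46 members as CPM per kb of coding sequence (log axis), with 1 point for each WT library (circles) and each KO library (crosses), ordered by the mean. Levels spanned from 40.2 (Utp20) to 2877 (Npm1), while the 6 libraries of any single gene lay close together.

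Promoter sequences of the members were taken from RefSeq (GRCm38.p6), in windows from 250 bases before to 50 bases after each start. Of the 46 members, 40 had an entry. The E-box CACGTG, the core sequence that MYC and MAX bind, was searched because the members varied together between libraries, as described below. It reads the same on both strands. It was found in 9 of 40 members (22.5%), against 8.09% of 27025 genes with an entry and 11.8% of 9867 tested genes with one. The 10 matches are shown as 30-base stretches in the direction of the gene, with the E-box in capitals. In 7 of them the E-box starts after the first transcribed base, which is why no longer stretch is shown for those.

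Nop2 (chr6:125131811-125131840, plus strand, 60 bases before the start): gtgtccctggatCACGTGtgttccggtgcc
Rrn3 (chr16:13780472-13780501, plus strand, 215 bases before the start): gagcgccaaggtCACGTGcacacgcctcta
Rrn3 (chr16:13780639-13780668, plus strand, 48 bases before the start): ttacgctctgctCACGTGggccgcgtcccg
Pes1 (chr11:3963965-3963994, plus strand, from base 3): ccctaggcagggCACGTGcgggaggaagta
Wdr43 (chr17:71616220-71616249, plus strand, from base 18): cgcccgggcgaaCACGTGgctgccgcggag
Tsr1 (chr11:74898092-74898121, plus strand, from base 25): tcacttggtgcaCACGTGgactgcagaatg
Ltv1 (chr10:13193092-13193121, minus strand, from base 29): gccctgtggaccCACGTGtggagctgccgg
Utp20 (chr10:88826765-88826794, minus strand, from base 38): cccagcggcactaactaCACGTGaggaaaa
Pno1 (chr11:17211540-17211569, minus strand, from base 38): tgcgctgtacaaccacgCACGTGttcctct
Mybbp1a (chr11:72441347-72441376, plus strand, from base 41): aagtgactgtcttctgagccCACGTGtttg

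Rrn3, the factor that recruits RNA polymerase I to the rRNA gene promoter, was the only member with 2 E-boxes in its window. Its 250 bases before the start (chr16:13780449-13780698, plus strand) are shown whole, with both in capitals.

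Rrn3 upstream: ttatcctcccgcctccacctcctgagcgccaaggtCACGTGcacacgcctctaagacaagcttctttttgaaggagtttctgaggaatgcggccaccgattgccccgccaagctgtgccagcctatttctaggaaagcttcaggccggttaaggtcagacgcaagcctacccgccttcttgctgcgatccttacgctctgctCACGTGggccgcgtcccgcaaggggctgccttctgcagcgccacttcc

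Other motifs were searched on both strands in the same windows. CCGGAAG, an ETS factor sequence, was in 15 of 40 members (37.5%), against 9.93% of all genes and 20.5% of tested genes. GGGCGG, the GC box, was in 31 of 40 (77.5%), against 38.2% and 67.8%. An NF-kB consensus was in 2 of 40 (5%), Dkc1 and Nat10, against 1.63% and 1.75%. TGACGTCA, the cyclic AMP response element, was in 0 of 40, against 2.03% and 3.63%. The median GC content was 59.3% in the members' windows and 60.7% in those of tested genes. These shares are descriptions of the letters and were not tested. Members with and without an E-box had the same median log2 fold of KO over WT to 2 decimals (-0.07 each).

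The single comparison asks how these genes differ between stimulated CD8 T cells labelled KO for NIK and those labelled WT; Map3k14 itself overlapped between them. No member passed the test in either direction. EdgeR's quasi-likelihood test (Benjamini-Hochberg adjusted p under 0.05 over 15186 genes) called 1 gene over the whole table, 0.00659% of those tested, and it was not a member. Among the members 2 had an unadjusted p under 0.05, both with the lower estimate in KO, where 3.44% of all tested genes did. No member had such a p in the other direction, against 3.82% of all tested genes. That count depended on the fit. It was 13, all lower, by limma-voom with quality weights, against 7.53% of all tested genes, and 1 (Rrp12) with a term for sex, against 3.38%. DESeq2 called 0 members, against 0.65% of 14000 genes (0.2% lower and 0.45% higher), and limma-voom 0, against 0.00659%. The smallest adjusted p of a member was 0.60 with edgeR and 0.12 with DESeq2, both for Rrp12.

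The estimates were small and shared a sign. All 46 log2 folds of KO over WT were below 0, where 47.6% of all tested genes were. Of the 3468 genes at least as abundant as the least abundant member, 51.1% were below 0. The members' median log2 fold was -0.07, against 0.01 over all tested genes, and the folds ran from -0.20 (Rrp12) to -0.01 (Polr1c, a subunit shared by RNA polymerases I and III). The widest 95% bounds of any member's fold were 0.796 and 1.11. The 46 estimates are not independent, since the members varied together from library to library, including between libraries of the same genotype.

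**Figure D2:**
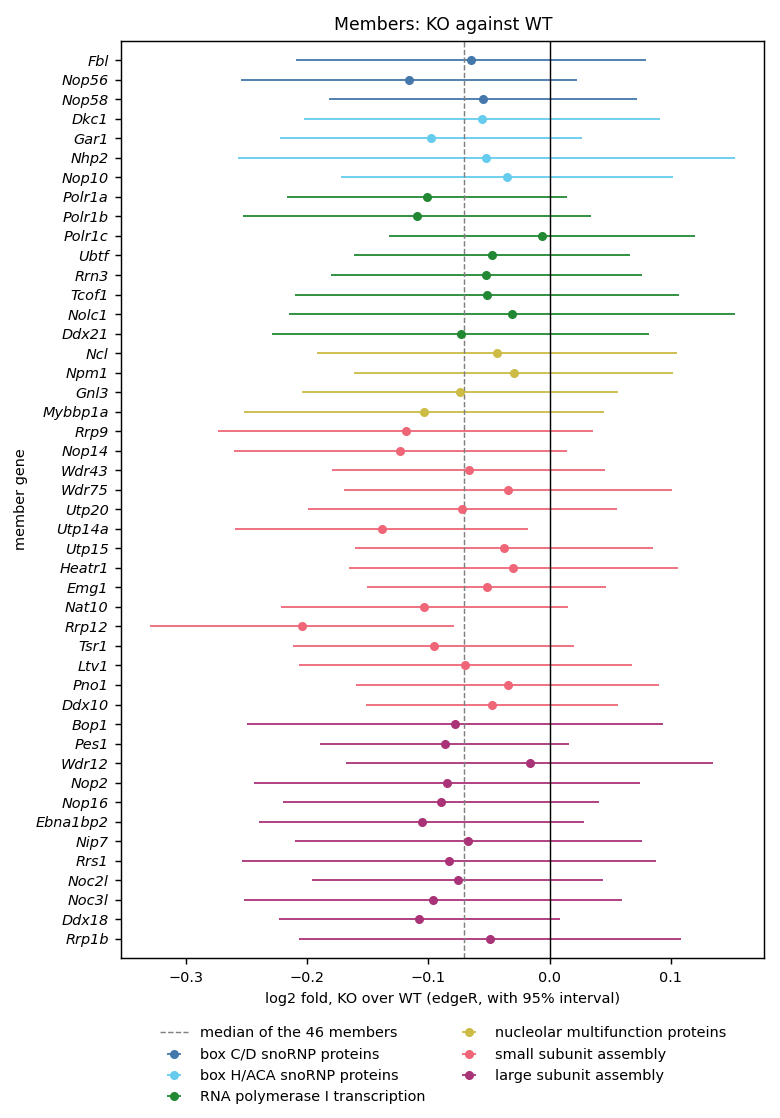
Log2 fold of KO over WT for each member (points, coloured by role) with its 95% interval from edgeR (lines), and the median of the members (dashed line). All 46 points lie left of 0, and the intervals of 2 genes, Rrp12 and Utp14a, do not reach 0 before adjustment for the number of genes tested.

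That shared variation was also seen among libraries of the KO group. Each gene's log2 CPM was taken relative to its mean over the 6 libraries, and the median of the 46 members was 0.07, 0.01 and 0.03 in WT1 to WT3. It was 0.05, -0.10 and -0.05 in KO4 to KO6. KO4 lay among the WT libraries and KO5 was lowest. All 46 members were higher in KO4 than in KO5, where 48.9% of all tested genes were. Of the 3468 genes of at least the same abundance, 2011 were higher in KO4 than in KO5. The members' median difference between these libraries of 1 genotype was 0.16 on the log2 scale. The widest gap between libraries of different groups was similar, with a median log2 difference of -0.18 for KO5 over WT1. KO5 was the lowest library for 38 members, against 16.6% of all tested genes, and WT1 the highest for 26, against 16%. KO4 was highest for 10 members, against 17.3%, WT2 for 7, against 18.3%, and WT3 for 3, against 14%. No member had its highest value in KO5 or KO6, against 18.9% and 15.4%. Among the 3468 genes of at least the same abundance KO5 was lowest for 727. The highest library was WT1 for 769 of them, WT2 for 640, WT3 for 360, KO4 for 781, KO5 for 615 and KO6 for 303. The members were also alike in the size of the shift: between KO5 and KO4 the interquartile range of the log2 difference was 0.07, against 0.19 over the 3468 genes of at least the same abundance. The likeness of WT1 and KO4 was not particular to the members. Over all tested genes that range was 0.18 between KO4 and WT1, the smallest of any pair of libraries. It was 0.20 between WT3 and WT2 and 0.22 between KO6 and KO5. Between WT2 and WT1 it was 0.36, and between KO5 and KO4 0.33. What made WT1 and KO4 alike was not tested.

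**Figure D3:**
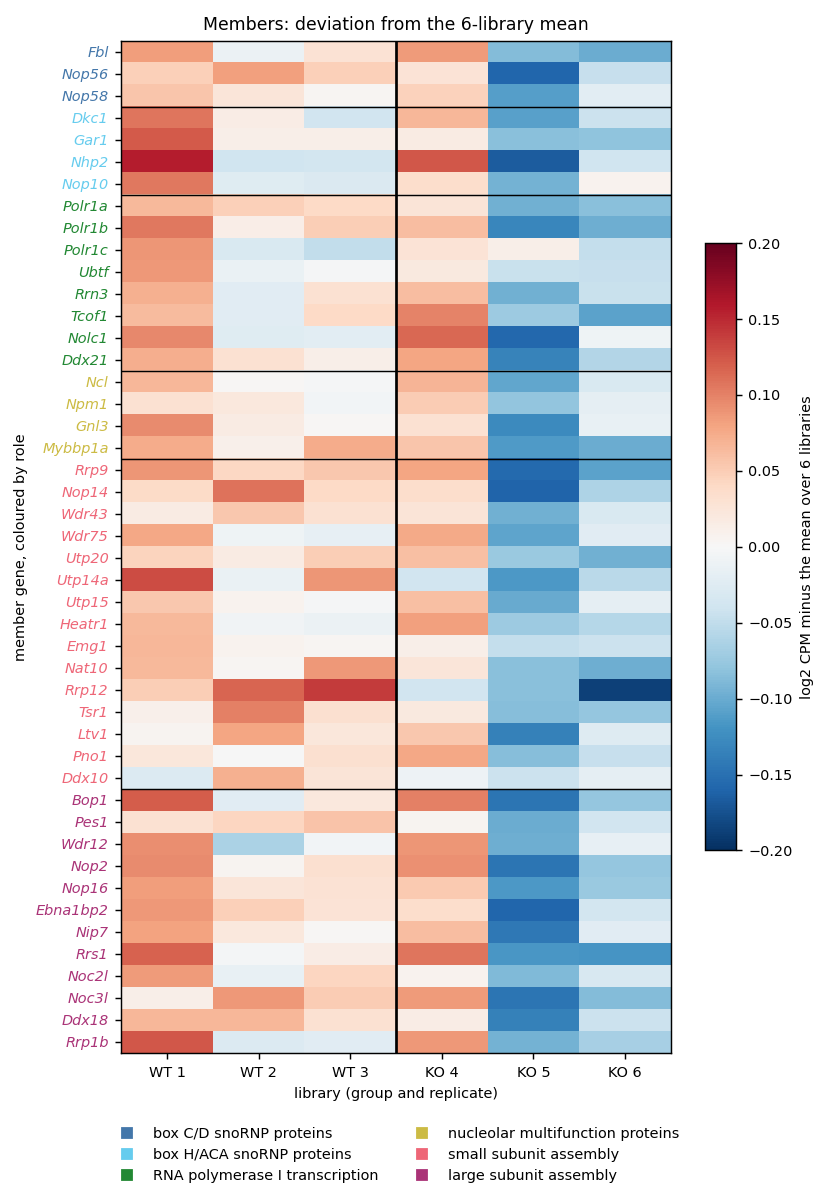
Deviation of log2 CPM from the mean over 6 libraries for each member (rows, grouped and coloured by role) in each library (columns; the line separates WT from KO). KO5 is the lowest library for 38 of 46 members, and KO4 exceeds it for all 46.

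In 7 members every KO library lay below every WT library, where 6.07% of all tested genes showed that order, and 7.81% of the 3468 genes of at least the same abundance. They were Nop56, Polr1a, Nop14, Utp14a, Rrp12, Pes1 and Ddx18, which span C/D particles, RNA polymerase I and both subunits. In 0 members did every KO library lie above, against 6.68%.

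Proteins of the box C/D particle had log2 folds from -0.12 to -0.05. Nop56, a core scaffold of the particle, was measured at 508.1, 520.7 and 508.3 CPM in WT1 to WT3 and at 501.5, 440.7 and 476.4 CPM in KO4 to KO6. The KO values were all below the WT values, with KO4 only slightly so. Its log2 fold was -0.12 (SE 0.06; edgeR adjusted p = 0.70). Nop56 hosts snoRNA genes in its introns and shares 8.12% of its annotated exonic bases with neighbouring or hosted genes. Nop58, its partner in the core, was at 422.6, 413.6 and 407.9 CPM in WT and 420.1, 377.0 and 400.7 CPM in KO (log2 fold -0.05). Fbl, fibrillarin, the methyltransferase of the particle, was at 229.2, 214.7 and 220.8 CPM in WT. In KO it was at 229.6, 203.8 and 202.1 CPM, so that KO4 was the highest of all 6 libraries and the groups overlapped (log2 fold -0.06, SE 0.06; edgeR adjusted p = 0.81).

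The box H/ACA proteins had log2 folds from -0.10 to -0.04, and for all 4 of them WT1 was the highest library and KO5 the lowest. Dkc1, dyskerin, the X-linked pseudouridine synthase, was at 299.7, 281.0 and 271.0 CPM in WT and at 291.4, 258.1 and 269.9 CPM in KO. The groups overlapped, with KO4 above WT2 and WT3 (log2 fold -0.06, SE 0.06; edgeR adjusted p = 0.84). Nhp2, an RNA-binding protein of the same core, was at 154.2, 134.4 and 134.8 CPM in WT and at 150.6, 123.2 and 134.5 CPM in KO. WT1 and KO4 stood apart from the other libraries, and the log2 fold of -0.05 (SE 0.09; edgeR adjusted p = 0.90) turned positive without either WT1 or KO5. Gar1, which helps the particle turn over, had a log2 fold of -0.10, and Nop10 one of -0.04.

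Genes of RNA polymerase I transcription had log2 folds from -0.11 to -0.01. Polr1a, the largest subunit of the enzyme, was at 351.6, 347.7 and 345.8 CPM in WT and at 342.4, 314.4 and 317.4 CPM in KO. The WT libraries were close together and all above the KO libraries (log2 fold -0.10, SE 0.05; edgeR adjusted p = 0.70). Polr1b, the second largest subunit, was at 236.2, 221.4 and 227.1 CPM in WT and at 229.0, 200.6 and 205.1 CPM in KO, with KO4 again inside the WT range (log2 fold -0.11, SE 0.06; edgeR adjusted p = 0.71). Ubtf, which binds and opens the rRNA genes, was at 340.0 CPM ± 13.0 in WT and 329.0 CPM ± 8.52 in KO (SD, n = 3 each), with an edgeR adjusted p of 0.82. Rrn3, shown above with its upstream sequence, was at 134.0 CPM ± 4.31 and 129.2 CPM ± 7.30 (SD, n = 3 each), with an edgeR adjusted p of 0.83.

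The adaptors between rRNA transcription and processing overlapped between groups as well. Tcof1, treacle, which supports RNA polymerase I and early processing, was at 607.9, 572.4 and 597.7 CPM in WT and at 622.9, 552.8 and 539.9 CPM in KO, so that KO held both the highest and the lowest library (log2 fold -0.05, SE 0.07; edgeR adjusted p = 0.87). Nolc1, a chaperone of snoRNPs, had the same pattern with 602.0 CPM in KO4 and 498.3 CPM in KO5 around 3 WT libraries of 546.6 to 593.8 CPM. Ddx21, an RNA helicase that links transcription by RNA polymerase I to processing, was at 937.0 CPM ± 20.2 in WT and 890.5 CPM ± 67.2 in KO (SD, n = 3 each; log2 fold -0.07; edgeR adjusted p = 0.80).

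The nucleolar proteins with several roles include the most abundant members. Ncl was at 3610, 3453 and 3440 CPM in WT1 to WT3 and at 3613, 3206 and 3373 CPM in KO4 to KO6. KO4 had the highest value and KO5 the lowest (log2 fold -0.04, SE 0.06; edgeR adjusted p = 0.88). Npm1 followed the same order in KO, at 2610, 2386 and 2488 CPM against 2572, 2556 and 2510 CPM in WT. Its log2 fold was -0.03 (SE 0.06; edgeR adjusted p = 0.91), with a 95% interval of the fold from 0.894 to 1.07. Gnl3, nucleostemin, a GTPase of dividing cells, was at 239.6 CPM ± 8.27 and 227.7 CPM ± 12.7 (WT and KO, SD, n = 3 each; edgeR adjusted p = 0.77). Mybbp1a, a MYB-binding repressor that also acts in rRNA processing, gave -0.10 on the log2 scale (edgeR adjusted p = 0.72). Gnl3 shares 4.10% of its exonic bases with other genes in all. They are 3 snoRNA genes on its own strand and Pbrm1, at 190.2 CPM, on the opposite strand. Counts of Gnl3 may be higher or lower for that, depending on how reads on shared bases were treated.

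Small subunit assembly held the members with the smallest p. All 15 estimates were below 0, with a median log2 fold of -0.07 and 2 genes at an unadjusted p under 0.05. Rrp12, which takes part in maturation and export of pre-ribosomes, was at 219.4, 230.0 and 233.8 CPM in WT and at 206.6, 200.2 and 186.4 CPM in KO. The groups were separate, with KO6, not KO5, the lowest. Its log2 fold was -0.20 (SE 0.05; edgeR unadjusted p = 0.0061, adjusted p = 0.60), with 95% bounds of 0.796 and 0.947 on the fold. Leaving out any 1 library gave log2 folds from -0.24 to -0.16. Utp14a, an X-linked factor of the small subunit processome, was at 162.4, 147.0 and 157.8 CPM in WT and at 144.5, 137.0 and 142.9 CPM in KO. The nearest libraries of the 2 groups, WT2 and KO4, were close to each other (log2 fold -0.14, SE 0.05; edgeR unadjusted p = 0.030, adjusted p = 0.65). Judged from Xist and Y-linked counts, WT1, WT3 and KO6 came from female mice, and WT2, KO4 and KO5 from male mice. The sexes were thus mixed in both groups but not balanced between them. With a term for sex the log2 fold of Utp14a was -0.11.

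Of the other factors of this subunit named here, Nop14 had separate groups. Heatr1, an early processome component that also supports rRNA transcription, was at 416.7, 396.7 and 395.4 CPM in WT and at 421.9, 379.1 and 383.1 CPM in KO (log2 fold -0.03, SE 0.06; edgeR adjusted p = 0.91). KO4 was again above every WT library. Utp20 was at 345.1 CPM ± 4.34 and 328.3 CPM ± 19.6 (WT and KO, SD, n = 3 each), and the KO libraries were the more spread (edgeR adjusted p = 0.77). Nat10, which acetylates cytidines of small subunit rRNA, was at 205.4 CPM ± 6.07 and 191.2 CPM ± 8.99 (SD, n = 3 each; log2 fold -0.10; edgeR adjusted p = 0.70). Nop14, a processome scaffold, was at 216.2 to 227.2 CPM in WT and 188.4 to 215.7 CPM in KO (log2 fold -0.12; edgeR adjusted p = 0.70). Tsr1, an assembly GTPase-like factor, shares 32.3% of its annotated exonic bases with Srr on the opposite strand. How strand was treated in counting is not stated, but Srr itself had a mean of 5.87 CPM beside 208.8 CPM for Tsr1.

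Large subunit assembly had the lowest median of the 6 roles, -0.08 over 12 genes. The members of the PeBoW complex, which is needed for maturation of large subunit rRNA, differed in their estimates. Pes1 was at 202.9, 204.8 and 206.8 CPM in WT and at 199.6, 185.6 and 193.5 CPM in KO, with separate groups (log2 fold -0.09, SE 0.04; edgeR adjusted p = 0.70). Bop1 was at 203.9, 184.6 and 190.3 CPM in WT and at 201.1, 169.4 and 177.7 CPM in KO, with KO4 above WT2 and WT3 (log2 fold -0.08, SE 0.07; edgeR adjusted p = 0.80). Wdr12, the third protein of the complex, had a log2 fold of -0.02. Ddx18, an RNA helicase, was at 180.0, 179.9 and 175.5 CPM in WT and at 173.7, 156.5 and 166.8 CPM in KO (log2 fold -0.11, SE 0.05; edgeR adjusted p = 0.70), again with separate groups of which KO4 came nearest to WT.

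Leaving out KO4 enlarged the difference and leaving out KO5 shrank it. Without KO4 the members' median log2 fold was -0.12, and 20 members had an unadjusted p under 0.05, all lower, where 3.66% of all tested genes did. Even then edgeR called 0 members, against 0.00644% of all tested genes, with a smallest adjusted p of 0.32. Without KO5 the median was -0.04 and 39 of 46 estimates stayed below 0. Without WT1 it was -0.05, with 40 below 0, and edgeR called 0 members, against 119 genes over the table (0.764%, with 0.43% lower and 0.334% higher). WT1 and KO4 were the most alike pair of libraries over all tested genes, as given above. How far these omissions reflect that was not tested.

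**Figure D4:**
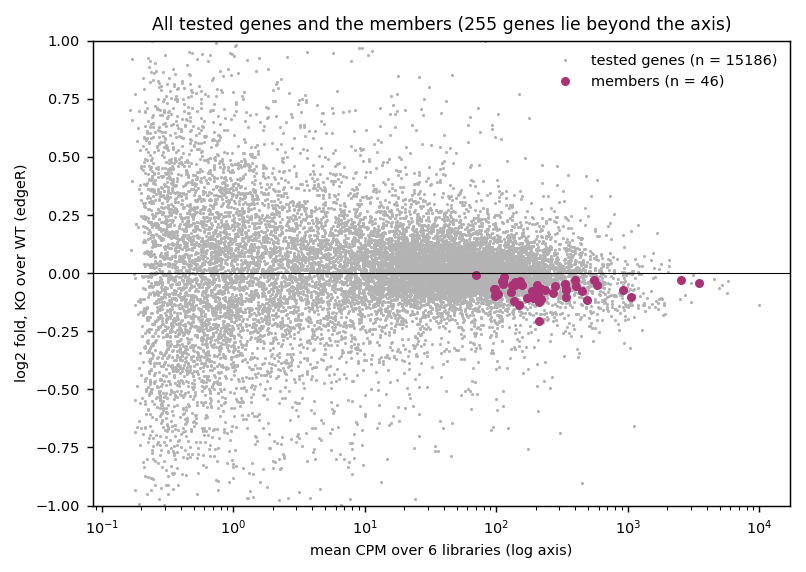
Log2 fold of KO over WT against the mean CPM over 6 libraries (log axis) for 15186 tested genes (grey) and the 46 members (purple), with 255 genes beyond the vertical axis. The members form a narrow band just below 0 at high abundance, with Rrp12 the lowest at -0.20.

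Further genes of ribosome synthesis, listed by role and not among the members, showed how far the pattern extended. Among 39 other small subunit assembly factors 31 had estimates below 0, with a median log2 fold of -0.07, and 3 had an unadjusted p under 0.05, all lower. On this and the following lists that count stands beside 3.44% of all tested genes. Nob1, the nuclease that makes the final cut of small subunit rRNA, had the smallest p there, at 104.3 CPM ± 1.13 in WT and 93.3 CPM ± 2.01 in KO (SD, n = 3 each; log2 fold -0.16; edgeR adjusted p = 0.60). Among 43 other large subunit factors 37 were below 0 (median -0.07; 7 at an unadjusted p under 0.05), led by Zfp593 at 48.9 CPM ± 1.03 against 42.7 CPM ± 2.02 (SD, n = 3 each), with an edgeR adjusted p of 0.60. EdgeR and DESeq2 called 0 genes of either list. Their library medians followed those of the members, being highest in WT1 and KO4 and lowest in KO5.

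The medians of 3 other lists lay nearer to 0, although their library medians were also higher in KO4 than in KO5. Of 15 further RNA polymerase I genes 9 were below 0 (median -0.02), with Polr2l, a small subunit shared by all 3 nuclear RNA polymerases, having the smallest p (log2 fold -0.10; edgeR adjusted p = 0.77). Of 13 further snoRNP proteins and assembly factors 6 were below 0 (median 0.01). Ruvbl2, an ATPase that helps assemble box C/D particles, had the smallest p and separate groups, at 254.8 CPM ± 7.95 against 226.0 CPM ± 8.00 (SD, n = 3 each), with an edgeR adjusted p of 0.60. Of 16 genes of the nuclear exosome and other nucleases 8 were below 0 (median -0.0024), and Exosc1 gave -0.12 on the log2 scale (edgeR adjusted p = 0.75). EdgeR called 0 genes of these 3 lists, where 0 had an unadjusted p under 0.05 on the first, 1 on the second and 0 on the third, and DESeq2 called 0. KO4 exceeded KO5 for 9 of the 15 genes, 13 of the 13 and 14 of the 16.

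Cytosolic ribosomal proteins, the products assembled by these factors, were also mostly below 0 but ordered the libraries otherwise. This list was made by the form of the gene symbol and holds 85 protein-coding genes. It can therefore include paralogues and related genes with such a symbol. Of 83 tested, 81 had estimates below 0, with a median log2 fold of -0.12 and 11 at an unadjusted p under 0.05 (3.44% of all tested genes, lower), and edgeR and DESeq2 called 0. Rpl38 had the smallest p (323.7 CPM ± 25.4 in WT, 286.4 CPM ± 8.08 in KO, SD, n = 3 each; edgeR adjusted p = 0.65). Their library medians were -0.03, 0.14 and 0.07 in WT1 to WT3, and -0.09, -0.0011 and -0.09 in KO4 to KO6. WT2 was the highest library for 75 of the 83 genes, while it was highest for 7 of the 46 members. KO4 exceeded KO5 for 6 of the 83, and for 46 of the 46 members. The members' medians were thus highest in WT1 and KO4, where those of ribosomal protein genes were below 0. Both medians were above 0 in WT2 and WT3, and both were below 0 in KO5 and KO6. This difference in order is a description and was not tested.

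Long noncoding genes that host snoRNAs followed the ribosomal protein genes. All 14 had estimates below 0, with a median of -0.15, and 5 had an unadjusted p under 0.05 (3.44% of all tested genes, lower), with 0 called by edgeR or DESeq2. Snhg15 had the smallest p (log2 fold -0.21; edgeR adjusted p = 0.60). Their library median was highest in WT2 (0.15) and low in KO4 (-0.10) and KO6 (-0.11). Of 21 snoRNA genes annotated inside 7 of the members, none exceeded 162 counts in any library. Snord53, inside Wdr43, had 123, 162 and 133 counts in WT and 106, 148 and 141 in KO, and Snord19, inside Gnl3, had 115, 112 and 112 counts in WT and 98, 75 and 76 in KO (log2 fold -0.41; edgeR adjusted p = 0.63). Snord110, inside Nop56, had the opposite sign at lower counts, with 23, 10 and 11 in WT and 27, 13 and 20 in KO (log2 fold 0.47; edgeR adjusted p = 0.80). Whether RNAs so short were retained in these libraries is not stated, and reads of the host transcript can fall on the same bases.

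**Figure D5:**
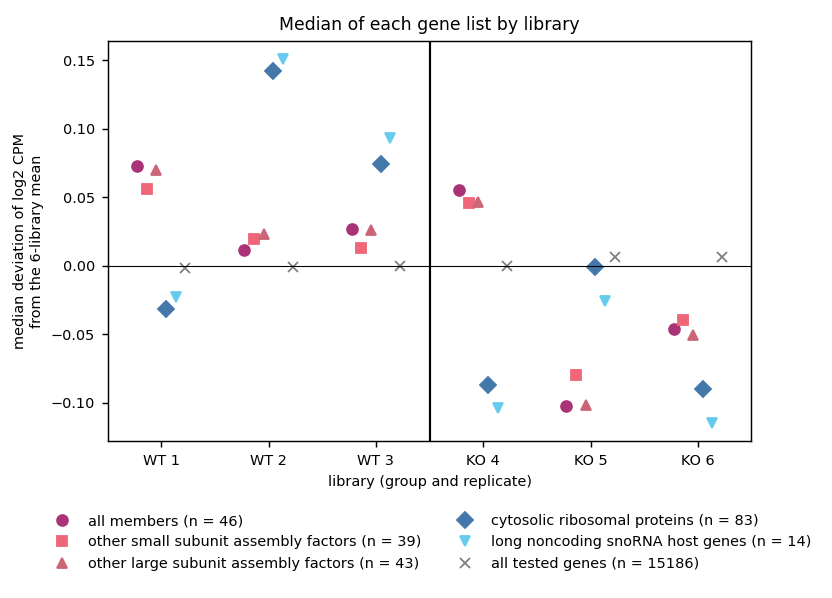
Median deviation of log2 CPM from the 6-library mean for 6 gene lists (symbols) in each library (the line separates WT from KO). Members and other assembly factors are high in WT1 and KO4 and lowest in KO5, whereas ribosomal protein genes and snoRNA host genes peak in WT2.

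Myc was lower in every KO library than in every WT library, but was not called. It was at 891.7, 931.6 and 872.1 CPM in WT1 to WT3 and at 812.2, 710.7 and 791.7 CPM in KO4 to KO6. The log2 fold was -0.22 (SE 0.07; edgeR adjusted p = 0.60). KO5 was lowest and KO4 highest among the KO libraries, as for the members, but WT2 and not WT1 was highest in WT. Of the 12 genes on the list of MYC and related regulators 8 had estimates below 0, and their median log2 fold was -0.01. The list as a whole did not order the KO libraries as the members did. KO4 exceeded KO5 for 3 of the 12, and the library median was -0.10 in KO4 and 0.06 in KO5.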

How the data were processed

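A single table of raw counts, with genes in rows and libraries in columns, was deposited by the authors. HTSeq 0.9.1, DESeq2 and the build mm10 are named there without a role, per the submitters' processing notes. The aligner, annotation, strand setting and handling of multiply mapped reads are not given in those notes. With totals of 41311346 to 47851445 counts, a count of 3 equals 0.0627 to 0.0722 CPM, for counting error only.

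Groups come from the sample titles. Genes kept by filterByExpr (15186) were fitted by genotype alone in edgeR 4.0.16 under R 4.3.3, using TMM scaling and robust glmQLFit with glmQLFTest, and p-values were adjusted over all of them. CPM use TMM factors. The SE is the log2 fold over the root of its F statistic, and intervals are at the 95% level. Coding lengths of principal transcripts and overlaps come from GENCODE on GRCm38, the assembly of mm10. Positions of the promoter stretches, and the starts from which their bases are counted, come from RefSeq. Of 212 genes on 15 further lists, 5 were matched by an older symbol and 1 had no row.

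The members and lists were chosen with earlier results of these data known. Named genes were 19 members set by role, the 3 lower members with the smallest p, any member called, the highest and lowest level per kb, Myc, and the gene with the smallest p on each further list of ribosome synthesis. Others were named after their values were seen. Alternatives were RLE, upper-quartile and total-count scaling, no filter or 1 CPM in 3 or more libraries, DESeq2 1.42.0, limma-voom (limma 3.58.1) with and without quality weights, omission of mitochondrial, immunoglobulin and ribosomal protein genes, and omission of each library. A sex term was added after seeing the data. The fits were tested on simulated counts.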

Additional observations from a re-analysis of the deposited data

How the results depend on the processing

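No member was called by edgeR, DESeq2 or limma-voom under any of the 16 alternatives run, and the members' median log2 fold stayed below 0. It ran from -0.08 (limma-voom with quality weights) to -0.06 (total counts alone) with all 6 libraries and from -0.12 (without KO4) to -0.04 (without KO5) with 1 left out. Across scalings the median of all tested genes ran from -0.00036 to 0.02. Members with an unadjusted p under 0.05 numbered 2 in the main analysis, 13 with quality weights and 20 without KO4. Polr1c was the member above 0 with total counts alone and with quality weights, and Wdr12 with a sex term. Over all genes, edgeR called 1 higher and 0 lower. That became 10 higher without a low-count filter, 8 higher with limma-voom and quality weights, and 63 higher and 28 lower with DESeq2. Leaving out 1 library gave from 1 to 52 higher and from 0 to 67 lower, with the largest counts without WT1. The cause was not tested. Estimates near 0 changed sign when 1 library was left out: Nhp2 ran from -0.13 to 0.017 and Npm1 from -0.063 to 0.0016. No paired analysis was run. WT carries replicate numbers 1 to 3 and KO carries 4 to 6, and the labels do not say whether any libraries were paired or prepared together. A p above the threshold in 3 libraries a group does not show that levels were equal.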
